A study of Homo sapiens with 12 samples.

Results

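MYC is a transcription factor that binds DNA only as a dimer with MAX, and the mRNA of MYC, of MAX and of 7 further genes of the same network was followed here in U2OS cells, a human osteosarcoma line, before and after transcription was blocked with triptolide. The 9 genes were taken by name (MYC, MAX, MXI1, MXD1, MXD3, MXD4, MNT, MGA and MLX) from 22379 genes with a row in the deposited table. All 9 exceeded the minimum for testing, a mean of 10 over the 6 untreated libraries, which 13811 genes passed. No member had a row identical to that of another gene.

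The network works through competition for MAX. MYC with MAX occupies E-box elements (CACGTG) and activates growth genes, whereas the MXD proteins, MXI1 and MNT take up MAX in place of MYC and recruit the SIN3 and histone deacetylase corepressors to the same sites. MGA is a large MAX partner within a Polycomb complex, and MLX is a MAX-like protein that pairs with MLXIP in glucose sensing and with some MXD proteins and MNT. MYC mRNA is a textbook example of a short-lived transcript, and its gene is often gained in osteosarcoma.

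The 12 libraries fell into 6 groups of 2 replicates. Cells had received Cas9 with a nontargeting guide (NONT), a guide to NUP93, a nuclear pore scaffold protein, or a guide to EXOSC5, a core subunit of the RNA exosome. The knockouts (NUP93-KO and EXOSC5-KO) were puromycin-selected pools rather than clones, so unedited cells may remain. Each genotype was left untreated or was given 1 μM triptolide, an XPB inhibitor that stops RNA polymerase II initiation, for 8 h. Comparing the knockouts with NONT asks whether cells given either of these guides hold on to the transcripts once transcription stops.

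The guides are shown because they define the genotypes. They are written 5′ to 3′, with the NGG motif that Cas9 needs, read from GRCh38, in capitals.
NUP93 guide: gaacttacaggagatccagcAGG
EXOSC5 guide: gaagttcttaccttgcaggaAGG
NONT guide: cggcggtcacgaactccagc
The NUP93 guide matched chr16:56748340-56748359 (plus strand), where all 20 bases lie in coding sequence of exon 2 of 22. The EXOSC5 guide matched chr19:41397170-41397189 (plus strand, the gene being on the minus strand) across the end of exon 1 of 6, with 9 of 20 bases coding and the others in the intron. The NONT guide had 0 exact matches in the genome.

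NUP93 mRNA was 1395 and 1432 in untreated NUP93-KO against 1753 and 2489 in NONT, but after triptolide the groups overlapped (801.3 and 1019 against 1007 and 898.7). For EXOSC5 mRNA every EXOSC5-KO library lay below both NONT libraries, at 215.9 and 147.7 against 299.4 and 481.3 without drug and at 75.2 and 101.5 against 265.8 and 207.8 with drug. Of these 4 differences, that of EXOSC5 under triptolide passed (log2 −1.42 ± 0.29 SE, limma adjusted p = 0.00302). An edited transcript can remain abundant, so mRNA checks these labels only in part. Of the mesenchymal and osteoblast genes looked at, VIM, SPARC and COL1A1 were at 7368 or more in every library. RUNX2 was 218.1 to 403.5 in untreated and 9.56 to 34.8 in treated libraries, and COL1A2 stayed between 4.05 and 42.0. The epithelial markers EPCAM and CDH1 were at most 69.7, and PTPRC, PECAM1 and ALB did not exceed 9.99.

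All levels below are ERCC-normalised values, in which the authors set each library to spike-in RNA added per cell. A value of 1 corresponded to about 1 read (1 read was worth 0.49 to 1.76 units), at an approximate depth of 8.56 to 11.92 M reads (M, mega). Fewer cells with an mRNA and less of it per cell cannot be told apart in such bulk samples. Summed gene values were 11.3 and 16.4 M in the untreated NONT replicates, between 12 and 14.4 M in the untreated knockouts, 4.90 and 5.94 M in treated NONT and 8.01 to 8.79 M in the treated knockouts. Untreated NONT replicate 2 thus stood apart, and results that rest on it are given with and without it. Nothing stated that replicates came from separate transfections, so p-values measure the spread between these samples, which may be technical.

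The E-box is the element through which the network's proteins act, so the members' own promoters were searched for it. Windows from 250 bases before to 50 bases after a RefSeq start (GRCh38.p14) were at hand for 8 of the 9 members, and MYC had none. CACGTG, which reads the same on both strands, occurred in 3 of the 13 windows of these members, 1 each of MXD4, MNT and MLX, and in 7.26% of all 35116 windows. The stretches that hold it are given 5′ to 3′ on the strand of the gene, with CACGTG in capitals.
MXD4, chr4:2262300-2262359, minus strand: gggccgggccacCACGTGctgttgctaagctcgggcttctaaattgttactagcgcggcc
MNT, chr17:2401221-2401280, minus strand: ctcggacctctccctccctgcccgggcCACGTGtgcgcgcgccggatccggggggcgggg
MLX, chr17:42567011-42567070, plus strand: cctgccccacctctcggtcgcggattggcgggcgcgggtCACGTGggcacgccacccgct
The motif begins 238, 193 and 50 bases before the start of MXD4, MNT and MLX. A match to these letters is a description and not evidence of binding.

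Without drug, MAX was the most abundant of the 9 mRNAs per length. Divided by the length of the canonical transcript in kb, MAX had a median of 513 over the 6 untreated libraries (range 447 to 554), above MYC in all 6. This order of MAX and MYC rests on the lengths used, 2010 bases for MAX and 3721 for MYC. Before that division MYC:MAX, with 1 added to each value, was between 0.928 and 1.38. MYC followed at a median of 319 per kb, MLX at 292, MXD3 at 167, MXD4 at 162 and MXI1 at 114, and the ranges of neighbours in this part of the order overlapped. MNT, at 52.1 per kb, lay below all values of MXI1 and above all values of MXD1, and MXD1 (19.3) and MGA (17.7) overlapped at the bottom. MYC made up 17.2% to 19.9% of the summed value per kb of the 9 genes in untreated cells of any genotype.

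MYC (ENSG00000136997, chr8:127735434-127742951, plus strand, 3 exons) lost nearly all of its mRNA in every genotype, but the residue was largest in NUP93-KO. In NONT the MYC level was 869.8 and 1431 without drug and 2.39 and 1.74 after triptolide. NUP93-KO cells had 1083 and 1164 without drug and 27.2 and 33.6 after it. EXOSC5-KO cells had 1236 and 1208 without drug and 5.18 and 5.29 after it. The 3 treated groups did not overlap one another, whereas the untreated range of NONT spanned all untreated knockout libraries. The mean MYC level after triptolide was 0.179% of the untreated mean in NONT (0.121% to 0.275% over the 4 ways to pair treated and untreated libraries), 2.71% in NUP93-KO cells (2.34% to 3.10%) and 0.429% in EXOSC5-KO (0.419% to 0.438%). These residues correspond to about 3.54 and 3.96 reads per library in NONT, 31.1 and 33.6 in NUP93-KO cells and 5.54 and 6.43 in EXOSC5-KO, so counting error is large in NONT and EXOSC5-KO.

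**Figure D1:**
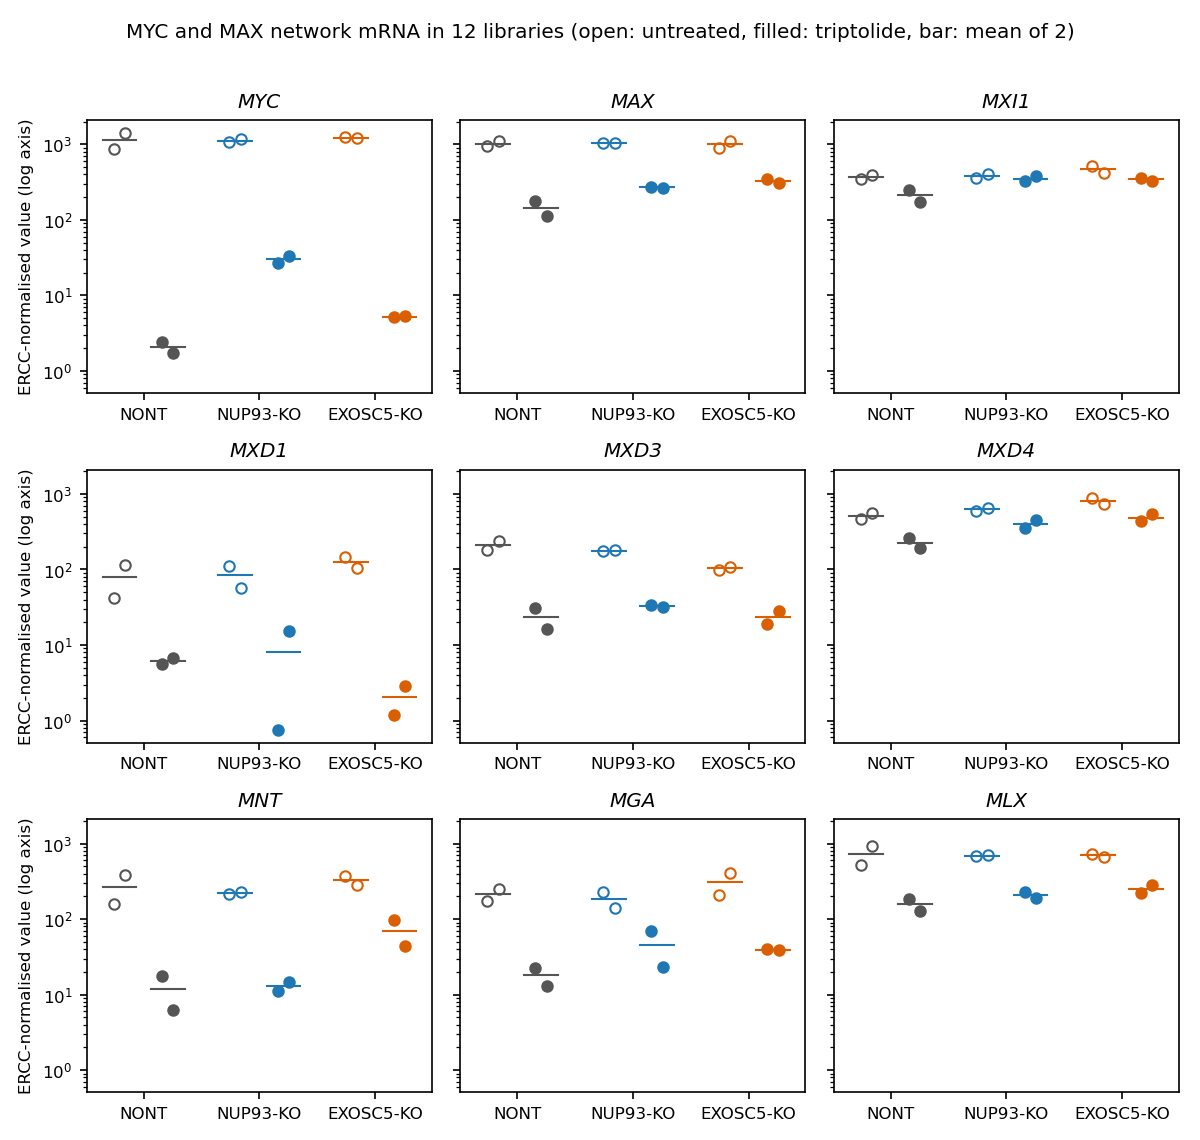
ERCC-normalised value (log axis) of each of the 9 network genes by genotype; open circles are untreated and filled circles triptolide-treated replicates, and bars are means of 2. Treated MYC sits at 1.74 to 2.39 in NONT, 5.18 to 5.29 in EXOSC5-KO and 27.2 to 33.6 in NUP93-KO, whereas treated and untreated MXI1 overlap in NUP93-KO.

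On the log2(value + 1) scale, which understates the change of low genes, the change of MYC was −8.52 ± 0.32 (SE, 2 against 2 libraries) in NONT, −5.17 ± 0.32 in NUP93-KO cells and −7.62 ± 0.32 in EXOSC5-KO (limma adjusted p = 8.86e-12, 2.96e-09 and 1.04e-10). The median gene moved by −1.62, −0.92 and −1.08 in the same order, so relative to it MYC moved by −6.90, −4.25 and −6.54. Only 0.0362% of tested genes fell further than MYC in NONT, 1.35% in NUP93-KO cells and 0.0797% in EXOSC5-KO. MYC therefore remained among the most depleted mRNAs in each genotype.

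MYC fell less in NUP93-KO than it did in NONT, with a difference of 3.35 ± 0.45 (SE) log2 units (limma adjusted p = 0.00829). MYC was the 1 member of 9 that passed this test, against a background of 0.775% of all tested genes called in either direction and 0.76% called with a smaller loss in NUP93-KO. The difference for MYC was above that of 99.6% of tested genes, whose median was 0.74. On scales that equalise the library total, the median gene or the mitochondrial mRNA sum, the difference of MYC was 2.82, 2.86 and 2.84, with adjusted p = 0.0147, 0.0138 and 0.0215. With 5 added in place of 1, the MYC change in NONT was −7.31. Over all 22 alternatives the difference between NUP93-KO and NONT ranged from 2.31 to 3.71. The call depends on untreated NONT replicate 2, without which the difference was 2.99 (adjusted p = 0.101), and it was lost without the mean-variance trend (0.0767) or with library weights (0.0766). The difference for MYC between EXOSC5-KO and NONT, 0.90 ± 0.45, did not pass (adjusted p = 0.225), nor did that between EXOSC5-KO and NUP93-KO, −2.45 ± 0.45 (adjusted p = 0.106). The latter passed on the library-total and median-gene scales (0.0275 and 0.028), with library weights (0.00932) and without either treated NONT replicate (0.0489 and 0.0487).

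MAX (ENSG00000125952, chr14:65006174-65102695, minus strand, 5 exons), the obligate partner, kept far more of its mRNA. MAX was 937.4 and 1112 in untreated NONT and 177.6 and 111.7 after triptolide. In NUP93-KO it went from 1032 and 1028 to 274.8 and 268.3, and in EXOSC5-KO from 898.2 and 1114 to 352.2 and 310.4. Treated and untreated MAX did not overlap in any genotype, and both treated NONT libraries lay below all treated knockout libraries. The log2 change of MAX was −2.85 ± 0.23 in NONT, −1.92 ± 0.23 in NUP93-KO cells and −1.59 ± 0.23 in EXOSC5-KO, leaving 14.1%, 26.4% and 32.9%. The smaller loss in the knockouts, by 0.93 ± 0.33 and 1.25 ± 0.33, did not pass (limma adjusted p = 0.0745 and 0.113). Both MAX differences passed without untreated NONT replicate 1 (0.0218 and 0.0148) or treated NONT replicate 1 (0.0259 and 0.022).

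Because MYC and MAX are read in the same library, their ratio is almost free of the spike-in scale. MYC:MAX, with 1 added to each value, was between 0.928 and 1.38 in the 6 untreated libraries of all genotypes. After triptolide it was 0.019 and 0.0243 in NONT, 0.102 and 0.129 in NUP93-KO cells and 0.0175 and 0.0202 in EXOSC5-KO. Treated NONT and EXOSC5-KO libraries were interleaved, and both NUP93-KO libraries lay above them. The log2 ratio moved by −5.67 in NONT (−6.08 to −5.26 over the 4 pairings), −3.25 with the NUP93 guide (−3.47 to −3.03) and −6.02 in EXOSC5-KO (−6.30 to −5.75). Each has an exact permutation p = 0.33, the smallest that 2 against 2 libraries allow. NUP93-KO minus NONT was 2.42 (1.79 to 3.05 over pairings, exact two-sided permutation p = 0.167, smallest possible 0.056). EXOSC5-KO minus NONT was −0.35 (exact permutation p = 0.278) and EXOSC5-KO minus NUP93-KO was −2.77 (exact permutation p = 0.111). The difference of 2.42 moved to 1.41 when 5 was added in place of 1.

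**Figure D2:**
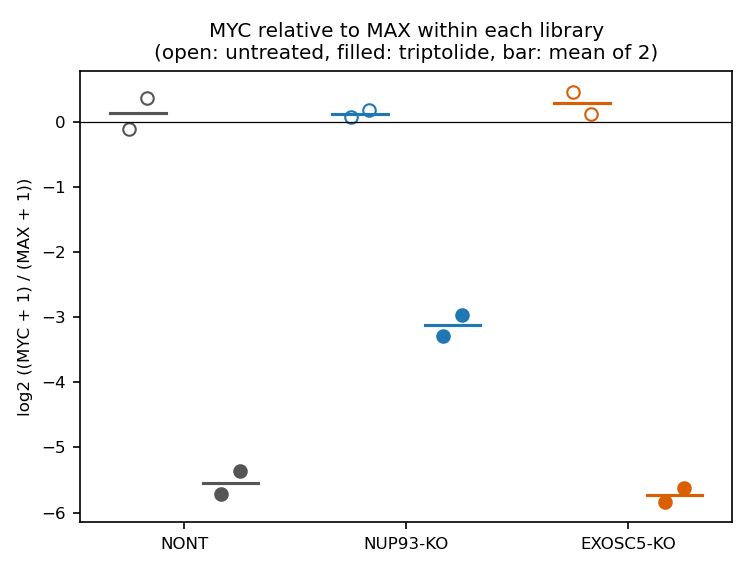
Log2 of (MYC + 1) / (MAX + 1) within each library, by genotype; open circles are untreated, filled circles triptolide-treated and bars means of 2. The 6 untreated libraries lie near 0, and the treated NUP93-KO libraries (0.102 and 0.129 as ratios) lie above the treated NONT and EXOSC5-KO libraries (0.0175 to 0.0243).

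The repressor partners differed in how much mRNA they kept. MXI1 (ENSG00000119950), an antagonist of MYC that binds SIN3, was the most persistent member in every genotype. It was 348.1 and 391.8 in untreated NONT and 252.2 and 173.5 after triptolide. NUP93-KO had 357.5 and 402.2 before and 328.5 and 377.1 after the drug, and EXOSC5-KO had 517.1 and 419.9 before and 361.7 and 329.7 after. Treated and untreated MXI1 overlapped in NUP93-KO cells and were separate in NONT and EXOSC5-KO. The log2 change was −0.82 ± 0.23 in NONT (limma adjusted p = 0.00385), −0.11 ± 0.23 in NUP93-KO (0.725) and −0.43 ± 0.23 in EXOSC5-KO (0.113), of which only the first passed. On the library-total scale the changes turned to 0.52, 0.46 and 0.36, and on the median-gene scale to 0.82, 0.78 and 0.64. MXI1 therefore persisted better than the median mRNA. Both of these scales set the library total or the median gene equal by construction, so they cannot show whether its level fell. On the mitochondrial scale the changes were −0.46, −0.41 and −0.53, and none passed (limma adjusted p = 0.0879, 0.129 and 0.0581). In NONT without treated replicate 2 the change on the spike-in scale was smaller, at −0.55.

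MXD4 (ENSG00000123933), another repressor of the MXD type, was the next most persistent. Its level went from 467.6 and 552.0 to 259.8 and 194.8 in NONT cells, from 596.2 and 657.6 to 351.2 and 457.0 in NUP93-KO cells and from 887.4 and 740.2 to 439.4 and 534.8 in the EXOSC5-KO pair. No treated library reached an untreated one of its genotype. MXD4 kept 44.6%, 64.5% and 59.9% of its mRNA, with log2 changes of −1.17, −0.64 and −0.74 (each ± 0.23 SE; limma adjusted p = 0.000166, 0.0236 and 0.00936). On the library-total scale they were 0.16, −0.08 and 0.05, and on the median-gene scale 0.47, 0.25 and 0.33. These scales set the library total or the median gene equal by construction, so the turned direction does not show whether MXD4 fell. On the mitochondrial scale the changes were −0.81, −0.94 and −0.84 (limma adjusted p = 0.00361, 0.00136 and 0.00335). The NUP93-KO call was lost without either untreated NUP93-KO replicate (adjusted p = 0.0562 and 0.137) or treated replicate 1 (0.231), and the EXOSC5-KO call without untreated or treated replicate 1 (0.0948 and 0.1).

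The other repressor mRNAs were largely lost. MXD3 (ENSG00000213347), a repressor linked to proliferating cells, was 182.2 and 240.9 in untreated NONT and 30.8 and 16.2 after triptolide. In NUP93-KO it went from 173.3 and 182.2 to 33.9 and 31.6 and in EXOSC5-KO from 99.8 and 107.5 to 18.9 and 28.6. MXD3 thus fell without overlap in each genotype, with log2 changes of −3.17, −2.41 and −2.11 (each ± 0.38 SE). MXD1 (ENSG00000059728), the founding member of the MXD family and an antagonist raised in differentiating cells, was the noisiest of the set. It went from 41.6 and 115.6 to 5.56 and 6.69 in NONT cells, from 110.4 and 57.7 to 0.74 and 15.3 in NUP93-KO cells and from 145.7 and 103.7 to 1.19 and 2.89 in the EXOSC5-KO pair. Its treated replicates in NUP93-KO differ between about 0.85 and 15.3 reads, which limits what can be said of its residue. The log2 changes of MXD1 were −3.31, −3.92 and −5.41 (each ± 0.81 SE; limma adjusted p = 0.00119, 0.000568 and 2.27e-05), and in NONT the call was lost on the library-total and median-gene scales (0.0759 and 0.118).

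MNT (ENSG00000070444), the broadly expressed antagonist of MYC, fell in all genotypes and kept its highest treated levels in EXOSC5-KO. It was 157.7 and 381.9 in untreated NONT and 17.6 and 6.18 after triptolide, and 213.3 and 229.6 against 11.0 and 14.9 in NUP93-KO. In EXOSC5-KO it went from 369.8 and 283.5 to 96.2 and 44.2. The treated EXOSC5-KO libraries lay above all treated libraries of the other genotypes, and those of NUP93-KO lay within the NONT range. The log2 change of MNT was −4.41 in NONT, −4.0 in NUP93-KO cells and −2.29 in EXOSC5-KO (each ± 0.50 SE), leaving 4.41%, 5.86% and 21.5%. The smaller loss in EXOSC5-KO did not pass against NONT (2.12 ± 0.70, limma adjusted p = 0.169) or against NUP93-KO (1.71 ± 0.70, 0.984). The former passed without untreated NONT replicate 1 (2.76, 0.0202) or treated NONT replicate 1 (2.81, 0.0357). The NUP93-KO minus NONT difference in the response of MNT was 0.41 ± 0.70 (0.654), and it turned to −0.31, −0.29 and −0.20 on the library-total, median-gene and mitochondrial scales.

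MGA (ENSG00000174197) and MLX (ENSG00000108788), which stand outside the MXD group, fell in all genotypes. MGA went from 173.0 and 253.7 to 22.7 and 13.1 in NONT cells, from 225.6 and 140.8 to 68.7 and 23.4 in NUP93-KO cells and from 207.1 and 403.1 to 40.2 and 38.6 in the EXOSC5-KO pair. MLX went from 512.3 and 921.2 to 187.1 and 127.0, from 681.7 and 694.9 to 227.3 and 188.0, and from 728.8 and 667.2 to 218.3 and 281.6. Neither gene showed overlap between treated and untreated libraries of a genotype. The log2 changes were −3.52, −2.12 and −2.84 for MGA (each ± 0.48 SE) and −2.15, −1.73 and −1.49 for MLX (each ± 0.28 SE). MGA lost its call in NUP93-KO (adjusted p = 0.0605), and MLX in EXOSC5-KO (0.0601), on the median-gene scale.

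Counted together, 9 of 9 members were called lower after triptolide in NONT, where 90.0% of all tested genes were. In NUP93-KO 8 of 9 were called lower against 55.1% of all genes, and in EXOSC5-KO 8 of 9 against 64.3%, with MXI1 the exception in both. The median change of the members was −3.17, −2.12 and −2.11, against −1.62, −0.92 and −1.08 for all tested genes. In each genotype 7 of 9 members fell further than the median gene, and MXI1 and MXD4 fell less. On the library-total scale 6, 7 and 7 members were called lower in NONT, NUP93-KO and EXOSC5-KO, and on the median-gene scale 6 in each. Of all tested genes, 38.2%, 39.3% and 36.7% were called lower on the library-total scale and 30.5%, 30.0% and 28.9% on the median-gene scale. Treated and untreated libraries were separate, with the treated lower, for 9, 8 and 9 of 9 members in NONT, NUP93-KO and EXOSC5-KO, and for 94.8%, 79.1% and 88.0% of all genes. The median gene itself moved by −0.32, −0.36 and −0.29 on the library-total scale and by −0.02, −0.04 and −0.02 on the median-gene scale. On the mitochondrial scale 8 members were called lower in each genotype, beside 11210, 10566 and 10372 of 13811 genes. There the median gene moved by −1.28, −1.22 and −1.17, so the genotypes lay closer together than on the spike-in scale.

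**Figure D3:**
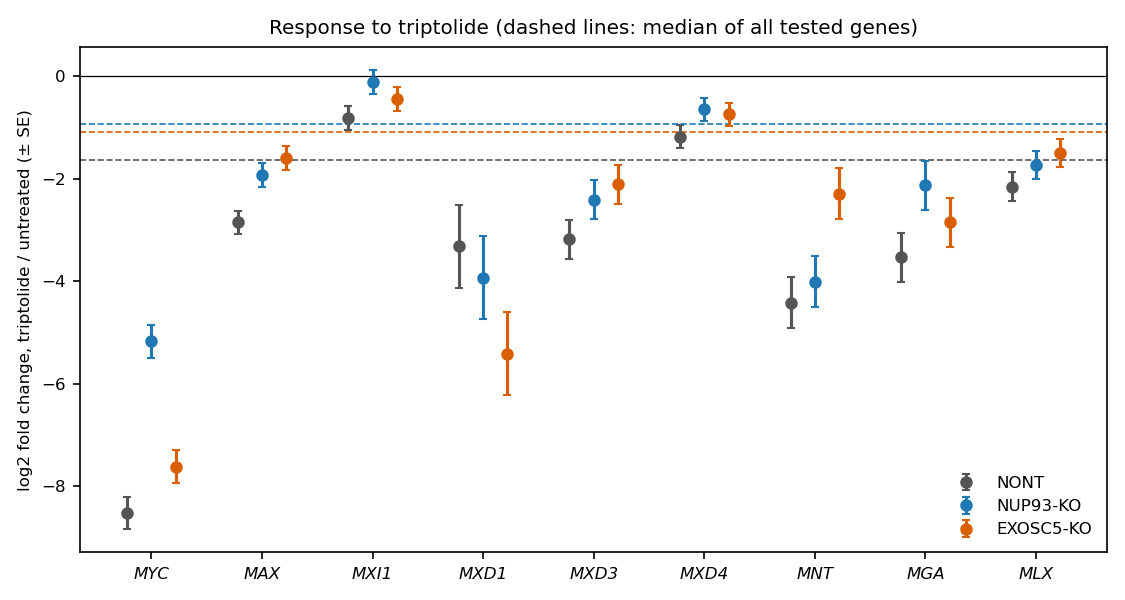
Fitted log2 fold change after triptolide (± SE, from 2 treated and 2 untreated libraries) of the 9 genes in each genotype; dashed lines are the median of 13811 tested genes. MYC lies lowest in each genotype, from −8.52 in NONT to −5.17 in NUP93-KO, and MXI1 and MXD4 lie above the median gene in all 3.

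**Figure D4:**
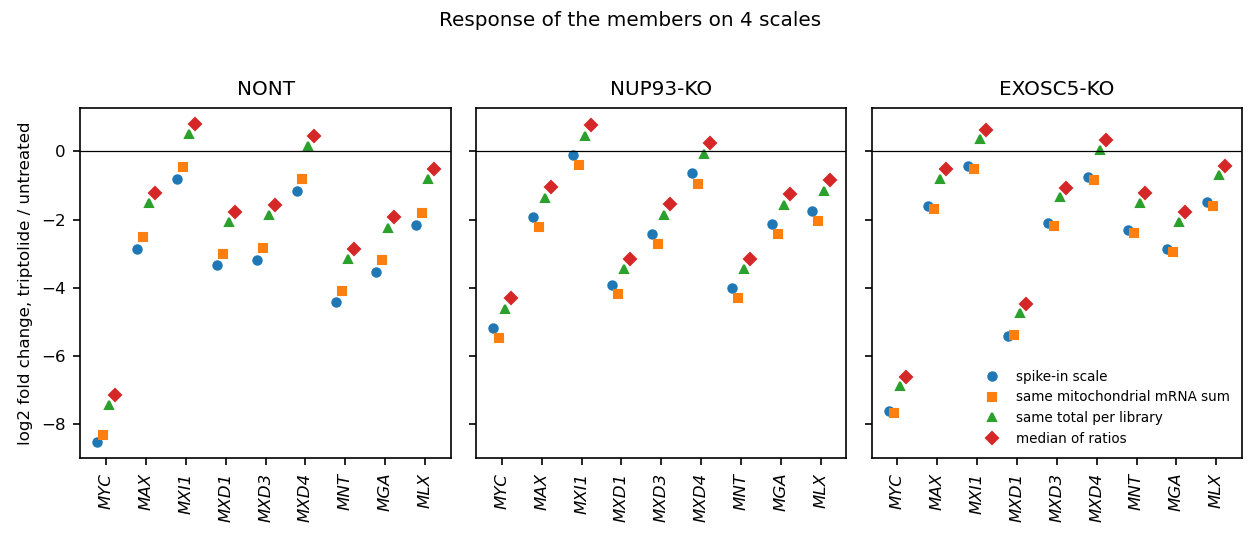
Log2 fold change after triptolide of the 9 genes on 4 scales, one panel per genotype. MXI1 lies below 0 on the spike-in and mitochondrial scales and above 0 on the library-total and median-gene (median of ratios) scales in all 3 genotypes, whereas MYC stays at −4.29 or lower throughout.

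Apart from MYC, no member responded differently to triptolide in NUP93-KO than in NONT by this test, with values from −0.61 for MXD1 to 1.40 for MGA and limma adjusted p from 0.0745 to 0.683. Between EXOSC5-KO and NONT 0 of 9 passed by limma, against 0.319% of all tested genes with a smaller and 0.0145% with a larger loss in EXOSC5-KO, and 2 had a smaller loss at an unadjusted p under 0.05 (MAX and MNT), as did 23.1% of all genes. The values ranged from −2.10 for MXD1 to 2.12 for MNT. Between the knockouts 0 of 9 passed by limma, against 0.0217% of all genes, with MYC lower and MNT higher in EXOSC5-KO at an unadjusted p under 0.05, where 4.32% of all genes differed. The comparisons with NONT share the NONT libraries, so their values are not independent of each other. Without untreated NONT replicate 1 the counts were 2 (MAX and MYC) for NUP93-KO and 4 (MAX, MLX, MNT and MYC) for EXOSC5-KO, and without treated NONT replicate 1 they were 2 (MAX and MYC) and 2 (MAX and MNT).

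Before the drug, no member passed a test between a knockout and NONT. Of the 9 members 0 passed between NUP93-KO and NONT by limma (0.0217% of all genes did), 0 of them at an unadjusted p under 0.05 (4.2% of all genes were), and the values lay between −0.24 and 0.30. Of the 9, 0 passed between EXOSC5-KO and NONT (0.521% of all genes did). MXD3 was at 99.8 and 107.5 in EXOSC5-KO and 182.2 and 240.9 in NONT, a difference of −1.01 ± 0.38 (limma adjusted p = 0.428), and MXD4 was at 887.4 and 740.2 against 467.6 and 552.0, a difference of 0.67 ± 0.23 (0.342). These were the 2 members at an unadjusted p under 0.05, where 8.49% of all genes were. MXD3, MXD4 and MXI1, 3 of 9 members, did not overlap between these groups, and neither did 28.4% of all genes. MXD4 passed on the library-total and median-gene scales (0.032 and 0.0453) and MXD3 on the mitochondrial scale (−1.38, 0.0395).

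Under triptolide the knockouts held more mRNA than NONT on the spike-in scale, for the median gene as for most members. MXD1 went the other way, at −0.41 in NUP93-KO and −1.28 in EXOSC5-KO, without passing. The general excess shrank or turned on the mitochondrial scale. There the median gene of treated NUP93-KO stood 0.08 log2 units above NONT, with 120 genes called higher and 21 lower. For treated EXOSC5-KO against NONT the median gene was at −0.16, with 227 genes called higher and 536 lower. On the spike-in scale 4 of 9 members were higher in NUP93-KO than in NONT (MYC, MAX, MXD4 and MXI1), as were 41.9% of all tested genes. MYC was higher by 3.36 ± 0.32 log2 units (limma adjusted p = 4.03e-05), MAX by 0.94 ± 0.23 (0.00933), MXD4 by 0.83 ± 0.23 (0.0133) and MXI1 by 0.75 ± 0.23 (0.0218). The median gene was higher by 0.66, and on the other 3 scales MYC alone passed, at 2.95, 2.94 and 2.92, where 3.74%, 3.47% and 0.869% of all genes were higher. The same single call remained without treated NONT replicate 2, and without treated NUP93-KO replicate 2 the calls were MYC and MGA.

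In EXOSC5-KO 5 of 9 members were higher than in NONT under triptolide, as were 39.2% of all genes. MNT was higher by 2.52 ± 0.50 (limma adjusted p = 0.0027), MAX by 1.22 ± 0.23 (0.00212), MXD4 by 1.10 ± 0.23 (0.00327), MYC by 1.03 ± 0.32 (0.0213) and MXI1 by 0.72 ± 0.23 (0.026). MXI1 turned to −0.11 on the mitochondrial scale. MNT passed on all 4 scales, whereas MYC did not pass on any but the spike-in scale. Without treated NONT replicate 2 or either treated EXOSC5-KO replicate, MAX, MNT and MXD4 were called. Between the treated knockouts the MYC level in EXOSC5-KO differed by −2.33 ± 0.32 log2 units (limma adjusted p = 0.00151), where 0.203% of all genes were lower. MNT was higher by 2.26 ± 0.50 (0.044), where 0.594% were. The MYC difference passed under every alternative run, and that of MNT was lost with 9 of 22, among them each treated NUP93-KO replicate left out (0.141 and 0.0602), treated EXOSC5-KO replicate 1 left out (0.273) and untreated NONT replicate 2 left out (0.0516).

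The make-up of the network mRNA also changed, a measure that does not depend on library scale. As a share of the summed value per kb of the 9 genes, MYC went from a mean of 18.5% to 0.195% in NONT cells, from 18.6% to 1.72% in NUP93-KO cells and from 19.5% to 0.262% in EXOSC5-KO. MAX held 26.6% to 34.2% without drug and 24.3% to 33.2% with it, and it stayed the highest per kb in 6 of 6 treated libraries. These shares and this order rest on the lengths used, 2010 bases for MAX, 3470 for MXI1 and 3871 for MXD4. Before division by length, MAX lay below MXI1 and MXD4 in every treated library. MXI1 and MXD4 together held between 13.3% and 22.5% of the sum in untreated libraries. In treated ones they held between 39.8% and 46.6%, without overlap. These 2 fell least of the 9 members, so their gain in share follows from the changes given above. The 5 repressor genes MXD1, MXD3, MXD4, MXI1 and MNT together held 29.0% to 34.2% before and 47.2% to 53.9% after the drug. The sum itself went from between 1363 and 1928 per kb in untreated to between 228.9 and 547.8 in treated libraries, so these are larger shares of a smaller pool. mRNA shares say nothing of the proteins.

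**Figure D5:**
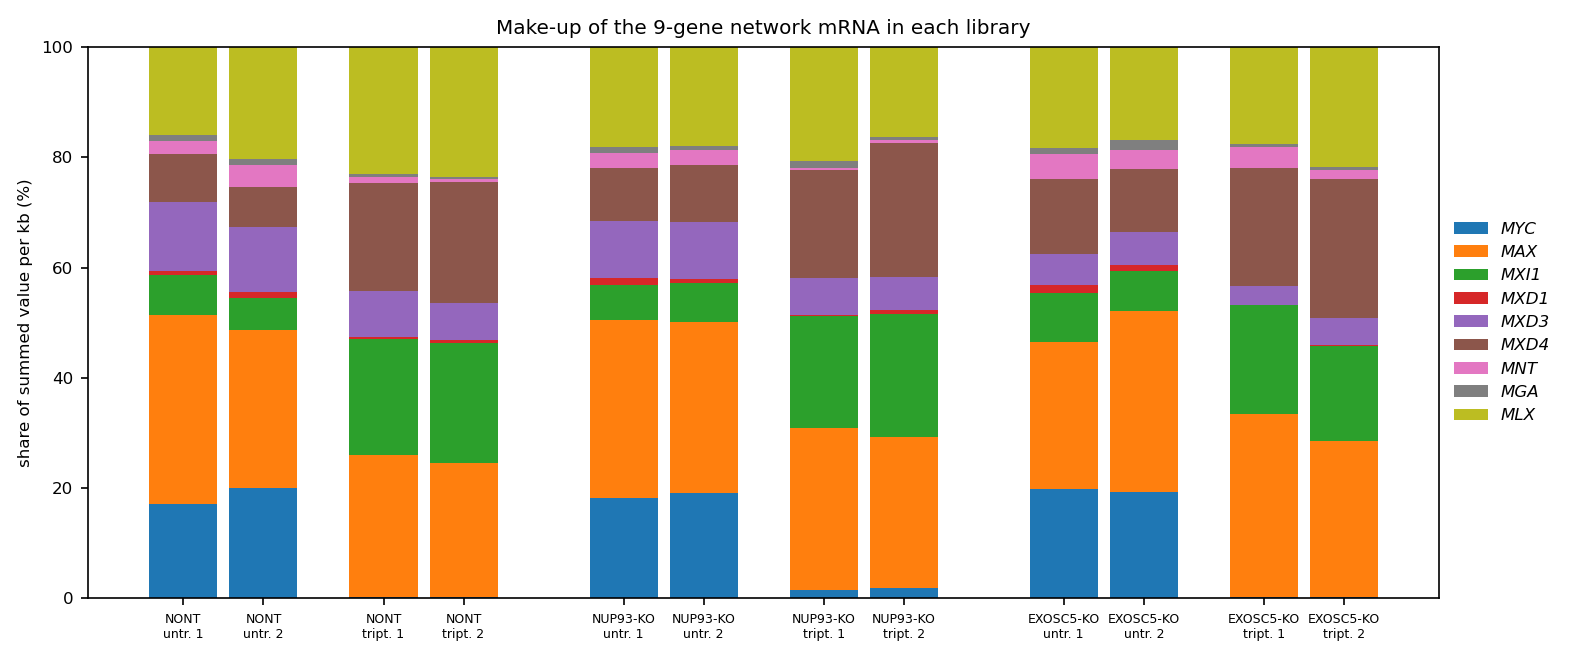
Share (%) of each of the 9 genes in their summed ERCC-normalised value per kb of canonical transcript, one bar per library (untr., untreated; tript., triptolide). MYC takes 17.2% to 19.9% of untreated bars and at most 1.86% of treated bars, while MXI1 and MXD4 together take 39.8% to 46.6% of treated bars.

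The genes whose profile was most like that of MYC over the 12 libraries were SOX9, HES1 and CCN1, among 10381 tested genes with an untreated mean of at least 100. The measure was the root mean square difference of log2 profiles, each centred on its untreated mean, which was 0.38 for SOX9, 0.48 for HES1 and 0.50 for CCN1. SOX9, a transcription factor of cartilage and progenitor cells, went from 730.4 and 1031 to 4.82 and 0.979 in NONT cells, from 1113 and 1184 to 31.5 and 35.9 in NUP93-KO cells and from 1057 and 980.4 to 5.62 and 6.59 in the EXOSC5-KO pair. As for MYC, both treated NUP93-KO libraries were the highest of the treated ones. This follows largely from choosing genes by their likeness to MYC over the same libraries. The nearest to MAX were C19orf25 (0.10), TLCD1 (0.14) and LRCH4 (0.14).

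The wider pathway was described with 6 lists of 59 genes, of which 55 could be tested. All 55 were called lower in NONT, 34 in NUP93-KO cells and 44 in EXOSC5-KO, where 90.0%, 55.1% and 64.3% of all tested genes were. Of the 55, 0 responded differently in any pair of genotypes by limma (lowest adjusted p = 0.0541 for NUP93-KO against NONT). At an unadjusted p under 0.05 there were 40 for NUP93-KO against NONT, 17 for EXOSC5-KO against NONT and 5 between the knockouts, beside 41.6%, 23.5% and 4.32% of all genes. MYCN, MLXIPL, RYBP and TERT were below the minimum. MYCN, the neural paralogue of MYC, did not exceed 7.87, and TERT, the catalytic subunit of telomerase, did not exceed 1.64. MYCL, another paralogue, was low, at 38.6 and 43.4 in untreated NONT and 4.09 and 0 after triptolide. MLXIP, the partner of MLX, went from 747.4 and 842.0 to 181.5 and 205.8 in NONT, a change of −2.03 ± 0.20 that did not pass on the median-gene scale.

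Of 12 cofactors, 12, 7 and 10 were called lower in NONT, NUP93-KO and EXOSC5-KO (all genes 90.0%, 55.1% and 64.3%). SIN3A, the corepressor scaffold that MXD proteins recruit, fell most, from 963.5 and 1457 to 35.8 and 56.3 in NONT (−4.69 ± 0.53, limma adjusted p = 5.64e-07), and its log2 changes were −5.03 in NUP93-KO cells and −5.66 in EXOSC5-KO. HDAC1, a deacetylase of the same corepressor, fell least, from 1283 and 1938 to 1181 and 982.0 (−0.55 ± 0.21, 0.02), and it turned to 0.79 and 1.09 on the library-total and median-gene scales. Without untreated NONT replicate 2 the change of HDAC1 was −0.25 (adjusted p = 0.173). SIN3A and HDAC1 are named as the extremes of the list in NONT, so their contrast says nothing of the corepressor as a whole.

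Among 8 genes of MYC protein turnover, 8, 6 and 7 were called lower (all genes 90.0%, 55.1% and 64.3%). AURKA, a mitotic kinase that stabilises MYC family proteins, fell from 2654 and 3935 to 125.4 and 83.1 in NONT (−4.97 ± 0.25, limma adjusted p = 9.30e-11). Of 8 tested genes of the MGA-containing PRC1.6 complex, 8, 5 and 6 were called lower, beside the same shares of all genes. E2F6, a repressor of the E2F family, went from 435.6 and 467.8 to 6.15 and 6.39 in NONT (−5.96 ± 0.48, 1.12e-08). Its dimer partner TFDP1 went from 2337 and 3504 to 1669 and 1459 (−0.87 ± 0.20, 0.000615), a change that turned to 0.46 and 0.77 on the library-total and median-gene scales.

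Among 23 tested MYC target genes, 23, 12 and 17 were called lower (all genes 90.0%, 55.1% and 64.3%), with a median change of −1.45, −0.73 and −0.96, against −1.62, −0.92 and −1.08 for all genes. CDC25A, a cell cycle phosphatase, fell most, from 638.8 and 956.2 to 17.0 and 6.52 in NONT (−6.07 ± 0.36, limma adjusted p = 4.63e-10). SRM, spermidine synthase, fell least, from 2501 and 3380 to 1803 and 1580 (−0.78 ± 0.19, 0.000945), and turned to 0.55 and 0.86 on the library-total and median-gene scales. The targets of MLX with MLXIP, TXNIP and ARRDC4, both arrestin-domain genes, were called lower in all genotypes. TXNIP went from 108.2 and 130.2 to 3.82 and 3.05 in NONT (−4.76 ± 0.49, 1.83e-07), and ARRDC4 from 96.9 and 112.4 to 3.61 and 4.41 (−4.40 ± 0.40, 4.70e-08). Both targets therefore fell further than MLX itself, at −2.15.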

How the data were processed

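Per the labels, cells were counted and lysed, ERCC RNAs were added per cell and stranded poly(A) libraries were made. The authors quantified reads with kallisto 0.46.1 on GRCh38 transcripts and tximport, and then scaled each library by DESeq2 with 92 ERCC transcripts as control genes. Non-coding genes were removed. The deposited values are a spike-in-normalised signal, not whole counts, so no count model was used. Errors in cell counting or spike-in volume move all genes of a library together.

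Of 22379 gene IDs, 19584 matched GENCODE 44. log2(value + 1) was fitted with 6 group means (limma 3.58.1 in R 4.3.3, eBayes with trend), with 11 two-sided contrasts and Benjamini-Hochberg adjustment over 13811 genes with an untreated mean of at least 10; the threshold was 0.05. In simulated data for NUP93-KO minus NONT on 13811 genes, 20%, 84%, 96% and 98% of differences of 1, 2, 3 and 4 log2 units were recovered, with 7 false calls. The differences were set only in genes of higher untreated level, with no shift of the median gene. Recovery for lower genes such as MXD1 was not measured. Members and lists were chosen with earlier results of these data known. Named list genes are those with the deepest and the smallest fall in NONT, of which 1 is not reported here; the genes most like MYC and MAX are the nearest 3 by profile. Alternatives were 3 scalings, 2 pseudocounts, 2 filters, no trend, library weights, a replicate block and leaving out each library. Summaries used Python 3.11.15.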

Additional observations from a re-analysis of the deposited data

Results flagged for a closer look

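The response of MYC to triptolide differed between NUP93-KO and NONT by 3.35 ± 0.45 (SE) log2 units in the test of the difference itself (limma adjusted p = 0.00829). The call was lost without the mean-variance trend and with library weights, and it rests on untreated NONT replicate 2, as given above. All 4 ways to pair treated and untreated libraries left a larger MYC residue in NUP93-KO (2.34% to 3.10%) than any of the 4 in NONT (0.121% to 0.275%). These pairings reuse the libraries of the test and add no separate evidence.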

How the results depend on the processing

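Of 1363 alternative values of single genes, 1260 kept their direction and side of the threshold. Members differing in response between NUP93-KO and NONT numbered 0 without the mean-variance trend and with library weights, in place of 1. Between the knockouts 1 member (MYC) differed on the library-total and median-gene scales and with library weights, in place of 0. Untreated EXOSC5-KO and NONT differed in 1 member on each of the 3 other scales. Under triptolide, NUP93-KO and NONT differed in 1 member on each of these scales in place of 4, EXOSC5-KO and NONT in 3 (library total), 1 (median gene) and 1 (mitochondrial) in place of 5, and the knockouts in 1 without the filter or the trend in place of 2. The cause was not tested.

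Turned directions on the library-total and median-gene scales were, for MXI1, 0.52 and 0.82 in NONT, 0.46 and 0.78 in NUP93-KO cells and 0.36 and 0.64 in EXOSC5-KO. For MXD4 they were 0.16 and 0.47 in NONT, 0.25 (median gene) in NUP93-KO cells and 0.052 and 0.33 in EXOSC5-KO. In NONT they were 0.79 and 1.09 for HDAC1, 0.46 and 0.77 for TFDP1 and 0.55 and 0.86 for SRM. These scales set the library total or the median gene equal by construction. The NUP93-KO minus NONT difference of MNT turned to −0.31, −0.29 and −0.20 on the 3 scales and to −0.23 and −0.28 without untreated or treated NONT replicate 2, within a range of −0.31 to 1.10 over libraries left out and scales. That of MXD1 turned to 0.12 without untreated NONT replicate 1 and 1.01 without treated NUP93-KO replicate 1, and was −2.23 without treated NUP93-KO replicate 2. MXI1 in treated EXOSC5-KO minus NONT turned to −0.11 on the mitochondrial scale. The EXOSC5-KO minus NONT difference in MYC:MAX turned to 0.44 with the mean of the other 7 members in place of MAX (exact permutation p = 0.056).

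With each library left out in turn, 8 to 9, 7 to 8 and 7 to 8 members were called lower in NONT, NUP93-KO and EXOSC5-KO. Members differing in response numbered 0 to 2 (NUP93-KO and NONT), 0 to 4 (EXOSC5-KO and NONT) and 0 to 1 (between knockouts). Without drug 0 differed in either comparison, and under triptolide 1 to 5, 3 to 7 and 1 to 2 did. The MYC:MAX change ranged from −5.91 to −5.43 in NONT, −3.41 to −3.08 in NUP93-KO cells and −6.19 to −5.85 in EXOSC5-KO, and its differences from 2.19 to 2.66, −0.59 to −0.12 and −2.95 to −2.60.

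Replicate numbers are shared between groups, and the labels do not say whether they pair the samples, which were treated as unpaired. Deviations of same-numbered libraries correlated across genes at −0.0513 to 0.0368, with 0 of 15 group pairs over 0.1. Such a correlation cannot see a shift common to all genes of a library, so pairing is not excluded. With the replicate block the counts stayed at 9, 8 and 8 called lower, and the MYC difference between NUP93-KO and NONT kept an adjusted p of 0.0077. The block changed no call reported here. With about 4 MYC reads in each treated NONT library, the size of its fall there is limited by depth.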
